A study of Mus musculus with 9 samples.

Results

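The regions described here are stretches of open chromatin that carried an ATAC-seq peak in 3 of 4 dendritic cell populations and none in the fourth, the LMP8 control of a Pcgf6 knockdown. They were found by merging the peaks of 4 lists on chromosomes 1 to 19 and X and keeping each merged region that overlapped a peak of the HP109, OE and mi8 lists by at least 1 bp and no peak of the LMP8 list. This gave 5519 regions of 194733 merged regions, which is 2.83%. The regions were thus chosen by the presence and absence of peaks in the deposited lists, and these are given as a description, with no test.

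The cells were dendritic cells grown from the marrow of C57Bl/6 mice for 9 days in 20 ng/mL GM-CSF, a cytokine that drives marrow progenitors towards this cell type. They received a vector on day 2 and were sorted as CD11c+ cells that also bore human CD8, the reporter of the vector. HP109 expressed a hairpin RNA against Pcgf6, OE carried Pcgf6 for overexpression, mi8 was the control of OE, and LMP8 was the control of HP109. Each vector had 2 libraries that share 1 deposited peak list, and 1 input library came from mi8 cells, so no list has a replicate spread. HP109 is a single hairpin, and the age of the mice and the contents of the control vectors are not stated in the labels.

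ATAC-seq marks DNA that a transposase can reach, which in a given cell includes most active promoters and the distal elements, such as enhancers, that differ between cell types and states. Pcgf6 defines PRC1.6, a Polycomb complex that is led to DNA in part by the E-box binding pair Mga and Max and by E2F6, and that is known for silencing germline genes. In dendritic cells, enhancers near receptor, signalling and costimulation genes open or close as the cells mature.

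Of the 5519 regions, 55 reached into the 300-base promoter window of a RefSeq transcript (250 bases before its start and 50 after it). They touched 60 of 32619 windows, of 55 genes, of which 35 are protein coding. The windows below are those of the 7 strongest such regions on a coding gene in which the peaks of HP109, OE and mi8 shared at least 50 bases of the window, a choice made after their values were seen. They show what DNA was open in the 3 lists and without a peak in LMP8. The sequences are from RefSeq, GRCm38.p6, the assembly of mm10, and run 5′ to 3′ on the strand of the gene, with capitals for the bases covered by the peaks of all 3 lists.
Mrpl20: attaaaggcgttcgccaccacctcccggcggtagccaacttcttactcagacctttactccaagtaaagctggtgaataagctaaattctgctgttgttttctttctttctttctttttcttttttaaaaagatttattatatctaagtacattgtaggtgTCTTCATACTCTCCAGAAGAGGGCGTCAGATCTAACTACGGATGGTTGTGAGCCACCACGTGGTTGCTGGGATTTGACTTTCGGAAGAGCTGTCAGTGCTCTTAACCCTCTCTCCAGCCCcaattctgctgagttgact
Deup1: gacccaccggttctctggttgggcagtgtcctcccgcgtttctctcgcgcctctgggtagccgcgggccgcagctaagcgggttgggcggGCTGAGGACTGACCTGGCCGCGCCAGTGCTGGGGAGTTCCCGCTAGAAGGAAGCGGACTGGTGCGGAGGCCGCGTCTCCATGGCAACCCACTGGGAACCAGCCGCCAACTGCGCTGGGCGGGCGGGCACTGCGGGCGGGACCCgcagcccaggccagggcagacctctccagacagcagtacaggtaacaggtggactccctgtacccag
Siglech: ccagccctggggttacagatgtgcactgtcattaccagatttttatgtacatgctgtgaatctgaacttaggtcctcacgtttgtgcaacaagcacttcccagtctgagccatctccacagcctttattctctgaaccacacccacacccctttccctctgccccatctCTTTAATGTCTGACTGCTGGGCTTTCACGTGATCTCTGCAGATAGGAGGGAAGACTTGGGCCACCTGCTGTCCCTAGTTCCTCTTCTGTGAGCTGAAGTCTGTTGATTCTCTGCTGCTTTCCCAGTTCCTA
B3gnt3: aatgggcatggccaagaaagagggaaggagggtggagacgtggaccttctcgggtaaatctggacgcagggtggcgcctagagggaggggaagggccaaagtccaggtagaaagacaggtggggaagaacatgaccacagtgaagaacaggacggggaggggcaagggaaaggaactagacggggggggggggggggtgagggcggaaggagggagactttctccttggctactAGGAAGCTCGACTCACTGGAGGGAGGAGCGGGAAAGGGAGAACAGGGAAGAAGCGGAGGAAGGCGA
Tenm4: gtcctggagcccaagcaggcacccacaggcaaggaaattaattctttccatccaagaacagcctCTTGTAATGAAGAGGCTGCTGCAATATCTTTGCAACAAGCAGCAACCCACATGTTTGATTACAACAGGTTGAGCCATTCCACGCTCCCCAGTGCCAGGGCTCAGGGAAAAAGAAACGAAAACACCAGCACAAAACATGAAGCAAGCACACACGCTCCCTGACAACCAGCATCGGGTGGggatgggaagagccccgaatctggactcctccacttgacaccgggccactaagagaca
Nppc: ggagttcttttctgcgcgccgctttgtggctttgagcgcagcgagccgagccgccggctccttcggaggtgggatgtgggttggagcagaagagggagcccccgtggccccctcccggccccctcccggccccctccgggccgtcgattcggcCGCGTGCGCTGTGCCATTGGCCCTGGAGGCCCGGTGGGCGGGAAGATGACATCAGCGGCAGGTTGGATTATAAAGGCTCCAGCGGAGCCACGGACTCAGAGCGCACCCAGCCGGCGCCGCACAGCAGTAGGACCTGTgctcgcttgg
Zic5: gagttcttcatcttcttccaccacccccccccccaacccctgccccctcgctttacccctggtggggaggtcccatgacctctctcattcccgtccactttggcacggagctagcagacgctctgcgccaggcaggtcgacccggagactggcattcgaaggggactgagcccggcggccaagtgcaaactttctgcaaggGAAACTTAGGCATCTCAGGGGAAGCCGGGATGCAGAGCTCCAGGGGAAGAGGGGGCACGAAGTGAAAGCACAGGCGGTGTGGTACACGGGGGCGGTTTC

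The windows lie at Mrpl20 chr4:155802628-155802927 (plus strand), Deup1 chr9:15627797-15628096 (minus strand), Siglech chr7:55767934-55768233 (plus strand), B3gnt3 chr8:71701751-71702050 (minus strand), Tenm4 chr7:96170994-96171293 (plus strand), Nppc chr1:86670524-86670823 (minus strand) and Zic5 chr14:122465609-122465908 (minus strand). Mrpl20 encodes a protein of the large mitochondrial ribosomal subunit, and its region had a −log10 q of 17.7 in HP109, 10.9 in OE and 17.7 in mi8. This −log10 q is the authors' own value for the significance of the peak summit over the input, and it ranks peaks within 1 list only. At Siglech, a sialic acid-binding lectin that marks plasmacytoid dendritic cells, it was 12.7 in HP109, 7.36 in OE and 16.6 in mi8. At Tenm4, a teneurin of neuronal adhesion, it was 6.63 in HP109, 6.26 in OE and 24.6 in mi8. The 3 genes serve a mitochondrial, an immune and a neuronal role.

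The remaining windows belong to genes of other tissues or of broad use. The peaks at Deup1, a gene of centriole amplification in multiciliated cells, had −log10 q of 11.7 in HP109, 8.73 in OE and 11.7 in mi8. B3gnt3, a glycosyltransferase gene, had 10.8, 7.14 and 8.65 in the same order, and Nppc, which encodes C-type natriuretic peptide, had 9.96, 5.89 and 5.99. Zic5, a zinc-finger gene of neural development, had 10.8 in HP109, 5.42 in OE and 10.3 in mi8. The nearest LMP8 peak was close by at Zic5 (0.083 kb), B3gnt3 (0.155 kb), Mrpl20 (0.201 kb) and Nppc (0.695 kb), and farther off at Tenm4 (10.1 kb), Siglech (14.6 kb) and Deup1 (53.8 kb). The lists differ in depth and in the number of peaks, so values of different lists are set side by side here and below without a comparison.

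Motifs were searched on both strands of the windows as exact letters. The E-box CACGTG stood in the capitals of Mrpl20, beginning 33 bases before the start, and of Siglech, beginning 56 bases before it. Whether these letters lie in repeat sequence was not examined. Over all 60 windows, CACGTG occurred in 4 (6.67%), beside 10.4% of 13466 windows touched by regions of all 4 lists and 7.20% of all windows. The E2F letters GCGGGAA stood in the capitals of Deup1, B3gnt3 and Nppc and in 4 of the 60 windows (6.67%), beside 8.43% and 4.63%. These shares stood near those of all promoters.

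Other searched letters were as follows in the 60 windows, with the share of all windows second. AP-1 (TGANTCA) was in 8.33%, beside 7.85%, PU.1 (GAGGAA) in 28.3%, beside 28.2%, and the NF-kB letters (GGGA, any 4 bases, CC) in 26.7%, beside 20.9%. The letters of interferon response elements (GAAA, any 2 bases, GAAA) were in 5 windows (8.33%), beside 3.46%, CCAAT in 23.3%, beside 37.6%, and TATAAA in 6 windows, beside 13.7%. The median GC content was 54.3% with 7 CpG dinucleotides per window, against 61.0% and 21 in windows of all-4-list regions and 53.0% and 7 in all windows. By base composition, then, the touched promoters lay near the average of all promoters and below the CpG-rich ones that were open in every list.

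The regions were the sixth most frequent of the 15 ways in which a region can be present in the lists. Of 97169 regions held by HP109, OE and mi8 together, 5.68% (exact Clopper-Pearson 95% interval 5.54 to 5.83, which here and below covers counting error alone) lacked an LMP8 peak, and 91650 had one. The same count for regions missing only in OE was 27208 of 118858 (22.9%), only in HP109 755 of 92405 (0.817%), and only in mi8 546 of 92196 (0.592%). Absence from 1 list alone was thus most frequent for OE and next most frequent for LMP8. The lists held 170077 peaks for HP109, 111488 for OE, 170946 for mi8 and 140716 for LMP8, so the shares of absence stood in the reverse order of list length. Of all regions with an HP109 peak, 24.2% had none in LMP8, and of those with an LMP8 peak 7.76% had none in HP109. In sorted bulk cells, fewer cells with an open site and a less open site in each cell cannot be told apart.

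**Figure D1:**
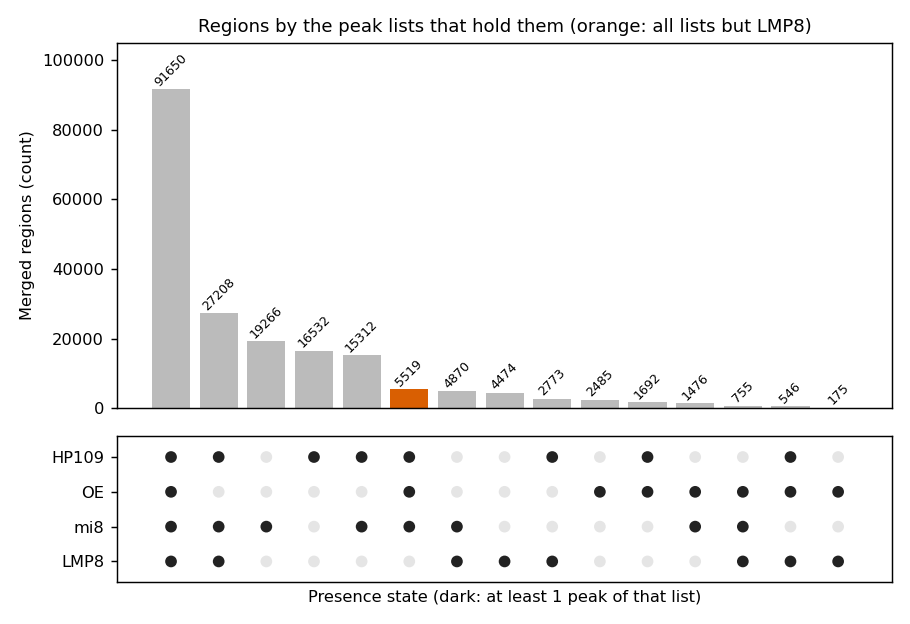
Merged regions (count, vertical axis) by the combination of lists with a peak there, marked by dark dots. The orange bar is the 5519 regions held by HP109, OE and mi8 and missing in LMP8. The tallest bar is the 91650 regions held by all 4 lists.

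Depth differed between the lists, but the shares of absence did not stand in its order. The lowest background that the peak caller set at a summit, which scales with the depth of a list, was 1.35 reads in HP109, 2.00 in OE, 1.95 in mi8 and 1.42 in LMP8. LMP8 and HP109 were thus of similar depth, and OE and mi8 were deeper. The median fold over background was 8.07 in HP109, 7.33 in OE, 7.22 in mi8 and 7.02 in LMP8, the lowest of the 4. The part that depth and signal over background play in the absence of LMP8 peaks was not tested.

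The regions were weak in each of the 3 lists that hold them. Their median −log10 q was 7.81 in HP109 (quartiles 5.51 and 11.4), against 32.7 in HP109 for regions of all 4 lists. In OE it was 6.54 (4.60 and 9.40), against 18.6, and in mi8 7.50 (4.92 and 10.3), against 33.0. Read pileups recovered at the summits had medians of 15 reads in HP109, 16 in OE and 16 in mi8, against 36, 29 and 41 reads at regions of all 4 lists, which had 25 reads in LMP8. In every list the upper quartile of the LMP8-missing regions lay below the median of the regions shared by all.

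**Figure D2:**
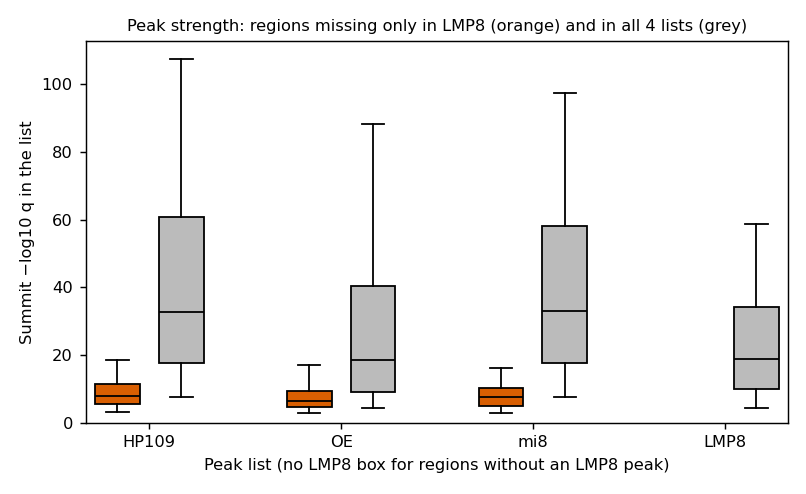
Summit −log10 q (vertical axis) of regions missing only in LMP8 (orange) and of regions in all 4 lists (grey), by peak list. Boxes span the quartiles with the median as a line, and whiskers run from the 5th to the 95th percentile. Each orange box lies below the median of the grey box beside it.

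Few regions were strong in every list that held them. A −log10 q of at least 5 in all 3 lists was reached by 2606 regions (47.2%), of at least 10 by 294 (5.33%), of at least 15 by 36 and of at least 20 by 5. A small upper end of the set, then, was well above the caller's limit in each of the 3 lists, which share 1 input library. Among these 5, the regions nearest to Sfi1 and Grik2 lay over a high input background, of 12.5 and 8.96 reads in HP109.

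The share of regions without an LMP8 peak was lower the stronger the peak was elsewhere. Binned by HP109 −log10 q, it was 43.7% under 5, 26.3% from 5 to 10, 7.70% from 10 to 20, 1.14% from 20 to 30, 0.152% from 30 to 40 and 0.00525% (2 of 38076) at 40 or above. Binned by OE, it was 18.2%, 12.4%, 4.32%, 1.16%, 0.335% and 0.0216% over the same steps. Binned by mi8, it was 48.2%, 28.3%, 6.88%, 0.499% and 0.0602%, and 0 of 37595 at 40 or above, which allows a share of up to 0.00798% by 3 counts of the total and 0.00981% by the exact interval. The same decline was seen for absence from the other lists. Regions missing only in OE made up 71.9% under 5 and 0.389% at 40 or above by mi8 strength, those missing only in HP109 11.995% and 0 of 37595 by mi8 strength, and those missing only in mi8 9.28% and 0 of 38074 by HP109 strength. Among the strongest sites of each list, absence from LMP8 came down to 2 regions by HP109, 5 by OE and 0 by mi8.

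**Figure D3:**
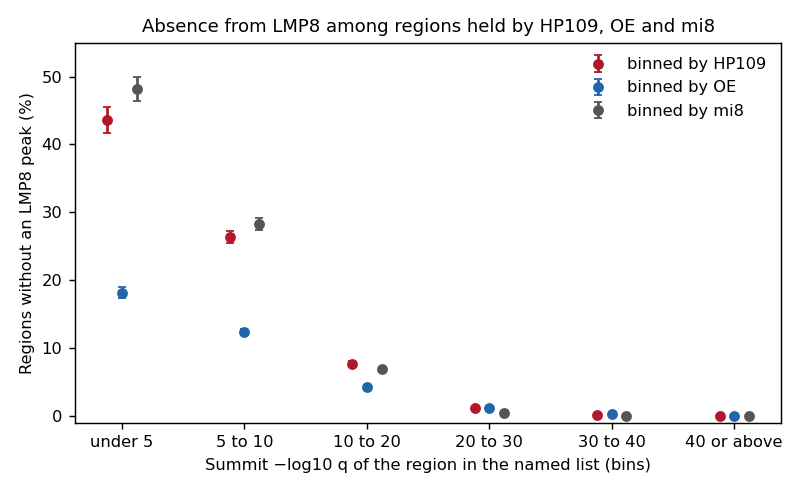
Share of regions without an LMP8 peak (%, vertical axis) among regions held by HP109, OE and mi8, by bins of summit −log10 q (horizontal axis) in each of the 3 lists. Points are shares and bars are exact 95% intervals. By HP109 the share is 43.7% at values under 5 and 0.00525% at 40 or above.

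Where the local background was at the lowest value of the list, pileups can be read beside the depth of LMP8. Of the regions, 2147 (38.9%) had an HP109 background within 1% of that floor, and their median HP109 pileup was 13 reads (quartiles 11 and 16). At its own floor LMP8 had 49921 peaks with a median of 16 reads, and its weakest called peak had 6. The HP109 pileup was at or above the LMP8 median at 654 of the 2147 regions (30.5%) and at least 2 times the weakest LMP8 pileup at 1423 (66.3%). Most of these HP109 pileups thus lay below the LMP8 median, beside which they are set without a test. Pileups in LMP8 at places without a peak are not in a peak list, so how far LMP8 fell short there is not known.

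A few regions lay where the input itself was high. The HP109 background exceeded 5 times the floor in 46 of the 5519 regions (0.833%, interval 0.611 to 1.11), against 64 of 91650 regions of all 4 lists (0.0698%) and 0.238% of all regions with an HP109 peak. Of the 46, chromosome 10 held 14 and chromosome 11 held 9. Such places are named as high input below, and none of the members counted in the gene lists lay in one.

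The limits of the rule can be seen at its edges. The members nearest to an LMP8 peak lay 3 bp from one at Ube2f, a NEDD8-conjugating enzyme gene, 3 bp from one at Actb, which encodes beta-actin, and 7 bp from one in Map3k7, the TAK1 kinase gene of Toll-like receptor signalling. The Actb region (chromosome 5, 142907912 to 142908338) had its HP109 summit 5 bp from the gene and −log10 q of 5.004 in HP109, 3.19 in OE and 7.56 in mi8. The Map3k7 region (chromosome 4, 31987525 to 31987919) was stronger, with 12.7, 11.2 and 13.5 in the same order. At these 3 places LMP8 had a peak directly beside the region.

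On the other side of the limit stood regions that LMP8 held barely. The weakest LMP8 peak in a region of all 4 lists was at Sod1, superoxide dismutase, with −log10 q of 1.31 in LMP8, beside 6.63 in HP109, 2.08 in OE and 5.75 in mi8. At Rgs6, a regulator of G-protein signalling, it was 1.36 in LMP8 beside 7.49, 9.74 and 8.25, and near Ctso, cathepsin O, 1.37 beside 5.68, 6.26 and 10.3. The LMP8 value was under 5 in 6094 regions of all 4 lists (6.65%), under 3 in 1354 (1.48%) and under 2 in 134 (0.146%). A small part of the regions that count as shared thus had LMP8 peaks close to the limit.

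Most members were separated from LMP8 peaks by more than 100 bp. The nearest LMP8 peak lay a median of 3113 bp away (quartiles 864.5 and 8943.5 bp), within 100 bp of 134 regions (2.43%), within 500 bp of 933 (16.9%) and within 5000 bp of 3389 (61.4%). Regions missing only in another list lay closer to a peak of that list by the median, at 2336 bp for OE, 1525 bp for HP109 and 2067.5 bp for mi8. A region of all 4 lists lay within 5000 bp of 2982 members (54.0%), at a median of 4214 bp, against a median of 2184.5 bp between neighbouring regions of all 4 lists. The nearest other member was a median of 81092 bp away, so the regions were scattered, with 393 (7.12%) having another within 5000 bp.

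Summits of the 3 lists lay close together in the regions, which the rule favours, since it asks for overlap and the peaks are narrow. This closeness is thus a description and no separate support. Summits lay a median of 22 bp apart between HP109 and OE, 21 bp between HP109 and mi8 and 22 bp between OE and mi8, against 18, 16 and 18 bp in regions of all 4 lists. In the same order 80.7%, 81.2% and 81.0% of the regions had summits within 50 bp of each other, against 83.9%, 85.5% and 83.0%. At least 1 base was covered by all 3 lists in 5455 regions (98.8%), and 5418 (98.2%) had exactly 1 peak of each list. The regions were also narrow, with a median width of 208 bp against 394 bp in regions of all 4 lists. Regions missing only in OE had a median of 227 bp, only in HP109 213 bp and only in mi8 197 bp, beside 242 bp over all merged regions.

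The regions were mostly distal. Only 314 (5.69%, interval 5.09 to 6.33) had their HP109 summit, from which distances to genes are counted, within 1000 bp of either end of a protein-coding gene, against 15.1% of regions of all 4 lists and 11.3% of all merged regions. Regions missing only in OE had 8.12%, only in HP109 9.54% and only in mi8 11.9%. A share of 56.9% lay inside a gene, against 54.96% in all 4 lists, and 8.28% had no gene within 100 kb, against 6.16%. Regions missing only in OE had 6.95% without such a gene, only in HP109 8.48% and only in mi8 6.04%. The share reaching a promoter window was 0.997%, against 11.4% in all 4 lists, and it was 2.73% for regions missing only in OE, 1.19% only in HP109 and 0.916% only in mi8. A low promoter share was thus common to regions missing from a single list.

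Promoter peaks tend to be strong, so position was also read within bins of HP109 strength. At −log10 q under 5 the gene-end share was 7.42% (5.97 to 9.10), against 10.6% in all 4 lists, from 5 to 10 it was 5.16% (4.34 to 6.07), against 9.14%, and from 10 to 20 it was 5.25% (4.19 to 6.48), against 8.65%. The gene-end share was below that of shared regions in each of these 3 bins, by less than over all strengths. At 20 or above the bin is not matched, since 174 of the 193 members in it lay under 30, and no share is compared there. No test between conditions bears on this, because regions are not replicates.

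The regions lay on every chromosome. Of regions held by HP109, OE and mi8, the share without an LMP8 peak ran from 4.36% on chromosome 19 (3.64 to 5.17) to 7.80% on X (6.80 to 8.90, 202 of 2590). The median HP109 −log10 q of those regions was 26.1 on X and between 29.2 and 32.3 on the autosomes. Peaks were thus weaker on X, where absence was most frequent, and the part of strength in this was not tested.

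The strongest region free of high input lay within Cd86, which encodes a costimulation ligand that mature dendritic cells show to T cells. It spans chromosome 16, 36623027 to 36623442, and its −log10 q was 39.6 in HP109, 32.1 in OE and 21.8 in mi8. The pileups were 40 reads in HP109, 38 in OE and 29 in mi8, over backgrounds of 1.56, 2.07 and 2.01 reads. It lay 43.0 kb from the nearer gene end and 1.16 kb from the nearest LMP8 peak. That neighbouring LMP8 peak had a −log10 q of 14.97, and a further one on the same side had 47.9, so the locus as a whole was open in LMP8. A second Cd86 region (36571668 to 36571895) was weak in HP109, at 4.19, with 7.14 in OE and 12.3 in mi8.

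By the rule for ranking, which takes the lowest of the 3 values, the first place went to a region 5.21 kb from Sfi1, a gene of centriole duplication (chromosome 11, 3126256 to 3126851). Its −log10 q was 36.3 in HP109, 23.3 in OE and 22.4 in mi8, and its backgrounds of 12.5, 18.2 and 17.6 reads mark it as a place of high input. The same holds for the region on chromosome 10 (47454440 to 47454657), with 21.4, 22.5 and 20.6. Its nearest gene is Grik2, a kainate receptor subunit gene, 1639 kb away, and its HP109 background was 8.96 reads. Both ranks thus rest on peaks over high input.

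The other regions among the 10 strongest had ordinary backgrounds. Nsd1, a histone H3 lysine methyltransferase gene, held a region (chromosome 13, 55249305 to 55249557) with −log10 q of 22.7 in HP109, 24.3 in OE and 21.0 in mi8. A region 29.2 kb from Mysm1, which encodes a histone H2A deubiquitinase, had 24.0, 24.0 and 19.9 (chromosome 4, 95008276 to 95008473). One 11.5 kb from Chst12, a chondroitin sulfotransferase gene, had 26.1, 20.5 and 25.002 (chromosome 5, 140536669 to 140536910). Each of these 3 lay above the 95th percentile of the members in every list, which was 18.6 in HP109, 17.2 in OE and 16.1 in mi8. Such high values follow from the ranking, which takes the lowest value of the lists.

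Cdk5rap2, a centrosome gene, held a region with 30.7 in HP109, 19.4 in OE and 18.8 in mi8 (chromosome 4, 70232319 to 70232580), and Chid1, a chitinase-domain gene, one with 26.3, 18.9 and 22.7. A region 232.8 kb from Gadl1, an amino acid decarboxylase gene, had 20.9, 30.04 and 18.8, and one 22.8 kb from Srbd1, an RNA-binding domain gene, had 24.9, 27.0 and 18.6. The distance to the nearest LMP8 peak was 0.674 kb at Chid1 and 27.4 kb near Gadl1. Among the 10 strongest, 4 thus lay inside a gene and none within 1000 bp of a gene end.

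**Figure D4:**
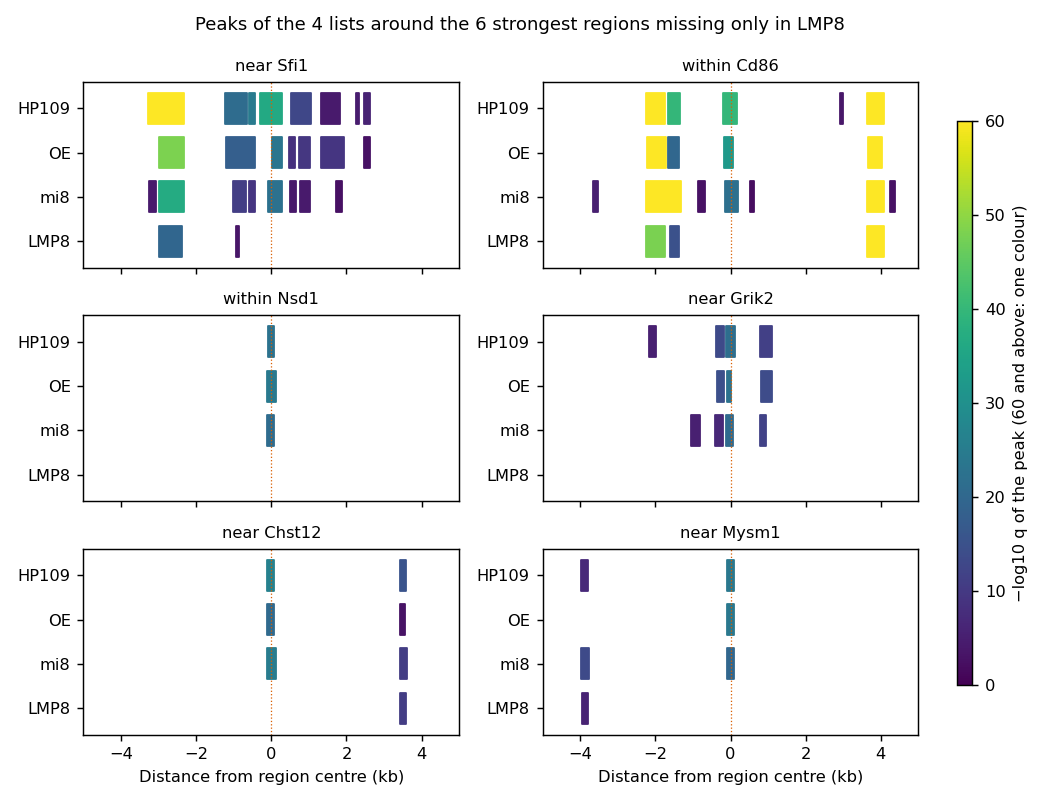
Peaks of the 4 lists (rows) around the 6 strongest regions missing only in LMP8, against distance from the region centre in kb, coloured by −log10 q. At Cd86, LMP8 has peaks on both sides of the region and none at its centre. At Nsd1 no list has another peak within 5 kb.

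At gene ends the strongest region lay 464 bp from H4c9, a histone H4 gene, with −log10 q of 18.6 in HP109, 21.7 in OE and 22.2 in mi8 (chromosome 13, 22040368 to 22040588). Tmem269, a transmembrane protein gene, followed with 21.7, 17.9 and 18.8, at 117 bp. Fen1, the flap endonuclease of DNA replication and repair, had 10.8, 16.7 and 12.1, at 171 bp. These regions were ranked by the lowest of their HP109, OE and mi8 values, so high values in each list follow from the choice. The nearest LMP8 peak lay 0.209 kb away at H4c9, 5.73 kb at Tmem269 and 4.72 kb at Fen1.

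The remaining leaders at gene ends were Gm13287, Ndufb4b, Kcnh3, Gm13271, Acp4, Bmper and Mrpl20. Kcnh3, a voltage-gated potassium channel gene, had 13.2 in HP109, 12.04 in OE and 13.5 in mi8, Acp4, an acid phosphatase gene, 20.9, 11.3 and 16.6, and Bmper, a BMP-binding protein gene, 15.6, 11.1 and 13.5. Gm13287 had 16.3, 16.9 and 17.4, and Ndufb4b, a gene named for a complex I subunit, 14.1, 12.9 and 12.5. Gm13271 had 13.1, 16.6 and 11.5 over a background of 6.78 reads in HP109, which marks it as a place of high input. H4c9, Gm13287, Gm13271 and Ndufb4b belong to families of like sequence, so the placing of their reads is uncertain. Repeat sequence was not searched for at Mrpl20 or the other leaders, so the placing of reads there was not checked.

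With each region assigned to the nearest protein-coding gene within 100 kb, 3698 of 21627 genes (17.1%) had at least 1 member. Of these, 2764 had 1 and 650 had 2. Sfi1 and Pde4d had most, with 9 each, but out of 16 regions held by HP109, OE and mi8 at Sfi1 and out of 101 at Pde4d, a cAMP phosphodiesterase gene of 1302 kb. All 9 Sfi1 regions lay over high input, with HP109 backgrounds of 12.5 to 30.8 reads. The count at Sfi1 is thus one of a high-input stretch, and that at Pde4d one of a long gene with many regions, where 8.91% lacked LMP8.

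Pcca, which encodes a subunit of the mitochondrial propionyl-CoA carboxylase, had 8 members among 26 regions (30.8%), all inside the gene. In 4 of them the OE value lay above the 95th percentile of the members in OE, 17.2. The first (chromosome 14, 122710815 to 122711104) had −log10 q of 11.8 in HP109, 35.1 in OE and 13.3 in mi8, with pileups of 22, 52 and 27 reads. The next had 11.9, 19.4 and 7.50, the third 10.8, 24.0 and 5.75, and the fourth 7.62, 24.0 and 5.23, while the other 4 had OE values of 1.56 to 6.26. The nearest LMP8 peak was 7.38 to 23.0 kb away from the 8 regions. Pcca was singled out in this detail after its values were seen.

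Zeb2, a zinc-finger repressor gene needed in dendritic cell development, had 8 members among 63 regions (12.7%), all inside the gene and none above 12.8 in any list. The strongest of them (chromosome 2, 45069315 to 45069632) had 12.8 in HP109, 4.35 in OE and 6.76 in mi8. Sox5, a transcription factor gene of the SoxD group, had 7 members among 42 regions (16.7%), a count it shares with Osbpl8, an oxysterol-binding protein family gene, where they were 7 of 48. One of these (chromosome 6, 143844528 to 143844821) had 17.7 in HP109, 30.1 in OE and 4.92 in mi8. Its OE value, too, lay above that percentile, while its mi8 value was below the mi8 median of the members, 7.50.

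Members were sought near the genes of 21 lists, immune and other, with 394 different genes, of which 99 had at least 1, beside the 17.1% of all genes. For a list, the members are given as a share of its regions held by HP109, OE and mi8, and the same share over all protein-coding genes was 5.56% (5062 of 91064). The shares ran from 0% to 12.02%, with 6 lists above that of all genes and 15 below. Peak strength was not matched between the lists, and its part in these shares was not tested. The NF-kB and Toll-like receptor list had 23 of 295 regions (7.80%, 5.01 to 11.5), on 12 of 25 genes, an interval that holds the share of all genes. In contrast, cytokines and chemokines had 3 of 180 (1.67%, 0.345 to 4.79), on 2 of 25 genes.

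Toll-like receptors sense microbial products, and signal through adaptor kinases to NF-kB. Among the receptors, Tlr4, the lipopolysaccharide receptor, had 5 members among 36 regions, and its co-receptor Ly96 had 2, and Tlr3, Tlr7 and Tlr9, which sense nucleic acids, had members as well. The strongest Tlr4 region (chromosome 4, 66946248 to 66946529) lay 99.8 kb from the gene and had 25.3 in HP109, 22.0 in OE and 10.1 in mi8. The nearest to the gene, at 1.54 kb, had 7.62, 1.78 and 4.92. The region near Tlr7, 13.6 kb from the gene, had 14.1 in HP109, 11.9 in OE and 14.4 in mi8.

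Among the kinases, Map3k7 had 4 members among 15 regions, and Irak3, an inhibitory member of the IRAK family, had 1, with −log10 q of 12.98 in HP109, 15.5 in OE and 17.7 in mi8. Among the regulators of NF-kB, Nfkbia, Nfkbiz and Tnfaip3 had 2 each. The stronger Tnfaip3 region lay 11.4 kb from this ubiquitin-editing enzyme gene (chromosome 10, 19026774 to 19026977) and had 9.48 in HP109, 24.3 in OE and 12.8 in mi8. The stronger Nfkbia region, 5.20 kb from the gene, had 6.58, 8.97 and 6.59. At the gene ends of the list there were 2 members, at Map3k7 with 3.06, 8.04 and 7.50 and at Tlr9 with 4.43, 2.05 and 9.58, both weak. With genes counted only when a region lay within the gene span and 5 kb on each side, 7 of the 25 genes had a member in place of 12. The same count was 3 in place of 6 for the Polycomb list, 3 in place of 7 for dendritic cell lineage factors, 3 in place of 6 for costimulation and 0 in place of 1 for granulocyte and mast cell markers.

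The C-type lectin and scavenger receptor list had 14 of 208 regions (6.73%, 3.73 to 11.0). Of these, 11 lay at Clec4a2, Clec4n, Clec4d and Clec4e, neighbouring lectin receptor genes of myeloid cells, among 44 regions there (25%). They lay in a stretch of 169.6 kb (chromosome 6, 123118562 to 123288131), and this cluster was singled out after its values were seen. LMP8 peaks stood close to all 11 regions, at 0.101 to 1.643 kb, against a median of 3113 bp over all members. Their −log10 q ran from 3.06 to 11.9 in HP109 with a median of 5.93, from 2.37 to 11.9 in OE with a median of 8.20 and from 1.96 to 9.89 in mi8 with a median of 4.12. All were modest peaks, and the strongest, within Clec4d (123271745 to 123272188), had 9.80 in HP109, 8.91 in OE and 9.89 in mi8. A member stood at a gene end of Clec4n, with 3.38, 3.82 and 1.96. Ly75, the antigen uptake receptor DEC-205, had 2 members among 11 regions, the stronger with 8.86, 6.71 and 7.76.

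**Figure D5:**
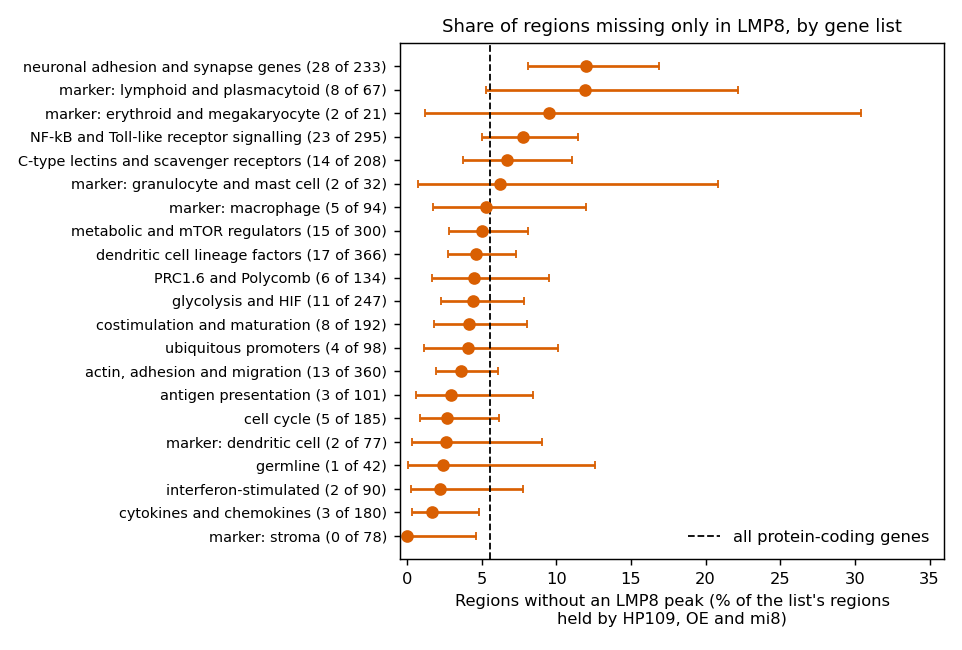
Share of regions without an LMP8 peak (%, horizontal axis) among the regions of each gene list held by HP109, OE and mi8, with exact 95% intervals as bars and the number of members of all such regions in brackets. The dashed line is the 5.56% of all protein-coding genes. All but 3 intervals cross the line: that of the neuronal list (12.02%) lies above it, and those of cytokines (1.67%) and stroma (0%) lie below it.

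The costimulation and maturation list had 8 of 192 regions (4.17%), led by Cd86. Its other strong members were at Havcr2, the inhibitory receptor Tim-3, with 12.98 in HP109, 10.9 in OE and 13.3 in mi8, and 91.6 kb from Marcks, an actin-binding protein gene, with 10.8, 10.3 and 15.5. Antigen presentation had 3 of 101 regions (2.97%), 1 each at Cd1d1, H2-D1 and H2-Ob, none above 8.04 in any list. Among cytokine genes, Il15 had 10.8, 8.04 and 6.61 in its stronger region and Ptgs2, the prostaglandin synthase gene of the list, 10.8, 4.35 and 15.5. Interferon-stimulated genes had 2 of 90 regions (2.22%, 0.270 to 7.80). Presenting and cytokine genes thus had few members, and their intervals are wide.

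Dendritic cell lineage factors had 17 of 366 regions (4.64%). Zbtb46, a transcription factor of conventional dendritic cells, had a region with 9.80 in HP109, 11.0 in OE and 8.38 in mi8, Id2, an inhibitor of E proteins, one with 7.95, 6.71 and 8.65, and Klf4 one with 5.37, 7.38 and 8.38. The PRC1.6 and Polycomb list had 6 of 134 (4.48%), 1 each within Ezh2, Kdm5c and Yaf2 and 24.3 kb from Mga, 34.2 kb from Pcgf5 and 86.3 kb from Rybp. The one within Ezh2, the Polycomb methyltransferase of PRC2, had 16.4 in HP109, 20.8 in OE and 5.75 in mi8. The region nearest to Mga, the DNA-binding subunit of PRC1.6, had 10.2, 5.37 and 14.2, and that nearest to Pcgf5, a paralog of Pcgf6, 12.98, 7.14 and 14.4. Pcgf6 itself, which is on this list, had no member, and since peaks measure accessibility and not RNA, the lists do not check its knockdown or overexpression. Germline genes, the known PRC1.6 targets, had 1 of 42 regions (2.38%), near Slc25a31.

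Metabolic lists stood near the level of all genes, with 15 of 300 (5%) for mTOR regulators and 11 of 247 (4.45%) for glycolysis and HIF. Vegfa, the vascular growth factor gene, had 20.2 in HP109, 18.01 in OE and 7.84 in mi8, and Prkag2, an AMPK subunit gene, 18.5, 14.8 and 12.8. These 2 lie in pathways of oxygen and energy sensing. Foxo3, a transcription factor under Akt, had 12.7, 13.9 and 12.05, Pik3ca, a PI3-kinase subunit gene, 11.9, 11.3 and 9.58 and Hif1a, the hypoxia factor gene, 6.63, 11.9 and 6.61. At the end of Ldha, lactate dehydrogenase A, the region had 20.3, 5.81 and 5.76, and HP109 there stood far above its member median of 7.81 while OE and mi8 stood below theirs. Cell cycle genes had 5 of 185 (2.70%), among them Ccne1, cyclin E1, with 32.2, 13.7 and 12.8, Rb1 with 14.1, 7.14 and 11.3 and Cdkn2b, a cyclin kinase inhibitor gene, with 5.82, 6.996 and 10.5.

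Actin, adhesion and migration genes had 13 of 360 regions (3.61%). Cttn, the actin-binding cortactin, had a gene-end region with 20.3 in HP109, 3.66 in OE and 9.22 in mi8, and near Fmnl2, a formin gene, there was one with 13.7, 8.12 and 18.6. Both genes act on actin filaments. Diaph1, another formin gene, had 5.68, 8.97 and 7.50 and Elmo1, an activator of Rac signalling, 4.94, 9.64 and 12.9. Ubiquitous promoters had 4 of 98 (4.08%), with Hprt, Ywhaz and Actb. Over all lists, gene-end members stood at 8 of 394 genes, Clec4n, Map3k7, Tlr9, Cttn, Actb, Ldha, Siglech and Tenm4, beside 311 of all 21627 genes (1.44%).

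The neuronal adhesion and synapse list, which holds long genes, had the largest share of the 21 lists, 28 of 233 regions (12.02%, 8.14 to 16.9), on 12 of 24 genes. The part of peak strength in this share was not tested. Cntnap2, of the neurexin family, had 5 of 26, the strongest with 17.7 in HP109, 13.9 in OE and 14.4 in mi8, at 161 kb from the nearest LMP8 peak. Dlg2, a synaptic scaffold gene, had 4 of 21, with 15.3, 12.9 and 11.3 at 205 kb from the nearest LMP8 peak, and Dscam, an adhesion gene, had 26.6, 11.9 and 25.8. Some members were thus far from any LMP8 peak.

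Markers of the cell types that the cultures could hold were read in the same way. The dendritic cell markers had a gene-end peak at 9 of 10 genes in HP109, 7 in OE, 8 in mi8 and 8 in LMP8, and macrophage markers at 11 of 12 in each list. Granulocyte and mast cell markers had one at 8, 4, 8 and 7 of 16 genes in the same order, lymphoid and plasmacytoid markers at 8, 7, 9 and 6 of 16, erythroid and megakaryocyte markers at 9, 6, 8 and 7 of 13, and stroma markers at 7, 5, 9 and 6 of 12. In every list, dendritic cell and macrophage markers thus had gene-end peaks at a larger share of their genes than the other classes. Some markers of every class were open in every list, so an open marker alone does not tell which cell type was present.

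Of the members, 8 of 67 regions lay at lymphoid and plasmacytoid markers (11.9%, 5.30 to 22.2), with 4 at Tcf4, a transcription factor of plasmacytoid cells, 2 at Siglech and 1 each at Cd3e and Il7r. Besides Siglech, Cd3e, a T cell receptor chain gene, had 9.69 in HP109, 8.48 in OE and 5.75 in mi8, and Il7r 8.64, 5.42 and 5.75. Granulocyte and mast cell markers had 2 of 32, which lay 19.8 and 87.95 kb from Kit, the stem cell factor receptor gene, and erythroid markers had 2 of 21. Macrophage markers had 5 of 94 (5.32%), at Mertk, an efferocytosis receptor, with 18.9, 6.26 and 21.1, at Maf, a macrophage transcription factor gene, with 5.004, 5.37 and 10.6 and at Adgre1, which encodes F4/80, with 4.58, 5.06 and 10.7. The nearest LMP8 peak lay 0.035 kb from the Mertk region, 0.391 kb from that of Maf and 13.59 kb from that of Adgre1. The macrophage share stood near that of all genes. Dendritic cell markers had 2 of 77 (2.597%), both at Zbtb46, and stroma markers 0 of 78, which allows a share of up to 3.85% by 3 counts of the total and 4.62% by the exact interval. The part that a different mix of cells plays in the regions was not tested.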

How the data were processed

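The authors deposited 1 narrowPeak list per vector, attached to both of its libraries, so no test between conditions was possible. Reads were processed with BWA, Picard and MACS2 on mm10, per the submitters' processing notes; versions, pooling and any read shifting are not stated there, and the names of the lists mention downsampling, without a depth. The deposited score is 10 times the −log10 q as a whole number. The deposited fold is the ratio of summit pileup to local background from the single input library. The deposited −log10 p and −log10 q state the significance of a summit over that background.

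Peaks of 4 lists on 20 chromosomes were merged (Python 3.11.15, pandas 2.3.3, scipy 1.17.1). A region takes the highest summit of each list, and its strength is the lowest −log10 q of HP109, OE and mi8. Pileup and background were recovered from fold, as (pileup + 1) over (background + 1), and the Poisson p, and matched within 0.001 for 100% of peaks. The code was tested on simulated data. Gene ends came from RefSeq GRCm38.p6 (21627 protein-coding genes, without exons or strand), promoters from its 300-base windows. All 413 list entries matched a gene.

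Named were the 10 strongest members, the 10 strongest at gene ends, the 5 genes with most members, up to 3 genes per list with the strongest members, every list gene with a gene-end member, and 3 regions on either side of the rule. The members, lists and tests were chosen with earlier results of these data known. Read totals are not in the lists; intervals cover counting error only, and whether the 2 libraries of a vector came from separate cultures is not stated. Some named results are not reported here.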

Additional observations from a re-analysis of the deposited data

How the results depend on the processing

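No paired analysis was possible because both libraries of a vector share 1 peak list, and for the same reason no replicate could be left out. The regions missing only in LMP8 numbered 5519 and stayed between 3835 and 7153 when peaks had to cover at least 50% of a region, when −log10 q of at least 5 was asked in all 4 lists, with 111488 peaks in each list, with a peak within 500 bp counted as present, and without merging. They fell to 2606 when −log10 q of at least 5 was asked in the 3 lists that hold a region. In an alternative chosen after seeing the data, leaving out regions of high input, they numbered 5473.

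Counts for the other lists moved as well. With −log10 q of at least 5 in the holding lists, regions missing only in OE numbered 15065, only in HP109 177 and only in mi8 124. With equal peak numbers they were 9013 for OE, 2749 for HP109 and 2204 for mi8, beside 27208, 755 and 546. Regions missing only in LMP8 then numbered 3835, beside 5519. The counts thus moved once list lengths were equal, and the part of list length alone was not tested. With cover of at least 50%, those missing only in HP109 numbered 1300.

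The gene-end share of 5.69% was 2.46% with a window of 500 bp and 11.7% with 2500 bp. It was 4.53% with −log10 q of at least 5 in the holding lists, 3.86% with LMP8 peaks within 500 bp counted as present and 6.72% without merging. Measured from transcript starts, an alternative chosen after seeing the data, it was 4.20%. Of 99 list genes with a member, 77 had one within the gene span and 5 kb.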
